A study of Homo sapiens with 6 samples.

Results

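The hypoxia-inducible factor (HIF) pathway was described as 34 genes, given as a list of symbols, of the 58233 rows with an Ensembl identifier in RNA sequencing tables from T24 cells. Each of the 34 symbols matched 1 row. T24 is an established line from a human transitional cell carcinoma of the urinary bladder. The cells had been made to express, by lentivirus and puromycin selection, either the vector (group VEC, 3 libraries) or RhoC with the mutation Q63E, which keeps this small GTPase active (group Q63E, 3 libraries). The comparison asks which HIF genes differed between cells with active RhoC and cells with the vector. The labels do not give the oxygen level or the density of the cultures, or whether the replicates were separate cultures or clones. Spread between replicates here may thus be technical, and the p-values rest on that spread alone.

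HIF is a transcription factor of an oxygen-regulated alpha subunit and the constant beta subunit ARNT. In the presence of oxygen the EGLN enzymes hydroxylate prolines of the alpha subunit, the VHL ubiquitin ligase then binds it, and the proteasome degrades it. HIF1AN hydroxylates an asparagine and so blocks the binding of coactivators. Because this control acts on the protein, the amount of HIF1A or EPAS1 mRNA does not by itself give the amount of HIF protein. When oxygen is low, HIF binds short DNA elements with the core ACGTG or GCGTG near genes of glucose metabolism, acid handling, collagen modification, mitophagy and growth control. In bladder tumours, CA9 and SLC2A1 are widely used as tissue markers of hypoxia.

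The deposited values are taken as FPKM, a read density per length of transcript. They are called values here. Totals per library ran from 726929 to 769026. RHOC went from values of 218 to 232 in VEC to 1726 to 1770 in Q63E, with no overlap. Leukocyte and endothelial markers were near absent (0 of 10 and 0 of 8 with a mean of at least 1), as were fibroblast markers (1 of 8). Of 10 urothelial markers 4 reached a mean of 1. KRT7 had a mean of 1031 in VEC and 1454 in Q63E, and PPARG 13.2 and 21.3, both with no overlap of the groups. FOXA1 (3.72 and 4.28) and GATA3 (1.79 and 0.363) had overlapping groups. UPK3A and KRT5 were listed at 0 in all 6 libraries. The summed value of 6 epithelial markers was 1097 to 1107 in VEC and 1932 to 1942 in Q63E. Nearly all of it came from KRT8 (581 in VEC and 985 in Q63E), KRT18 (515 and 788) and KRT19 (5.67 and 161). EPCAM and KRT17 had a mean below 1, and CDH1 was listed at 0 in all libraries. The part of these shifts of keratins and PPARG in the HIF results was not tested.

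Promoter windows from RefSeq (GRCh38.p14, 250 bases before to 50 bases after a start site) were matched to 30 of the 34 members. BNIP3L, NDRG1, STC1 and VHL were not matched. The core of the hypoxia response element was searched as ACGTG and as GCGTG on both strands. A CACGTG box holds the first core on each strand and counts as 2 matches. Of the 30 matched members, 26 (86.7%) had a match in at least 1 window, against 70.9% of 9846 tested genes and 52.4% of 27305 genes with a window. By call, these were HIF3A, 10 of 11 members that rose in Q63E, 4 of 4 that fell and 11 of 14 that did not pass the test. Counted per window, 74.4% of the members' windows held a match, against 61.5% for tested genes. The shares were 59.6% for all genes called higher and 62.35% for all called lower. The members' windows had a median of 69.3% G and C, against 65% for tested genes and 58.7% for all windows. The part of this content in the matches was not tested. A match is a description of the letters and not a measured binding site.

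Windows of 6 members, each with 1 window in the table, are shown 5′ to 3′ on the strand of the gene, with each match in capitals. CA9, PFKFB4, DDIT4 and BNIP3 are target genes that rose, ANKRD37 holds 3 matches and did not pass the test, and PLOD1 holds 2 matches and fell. They lie at chr9:35673678-35673977 (plus strand), chr3:48556754-48557053 (minus), chr10:72273674-72273973 (plus), chr10:131981874-131982173 (minus), chr4:185396591-185396890 (plus) and chr1:11934467-11934766 (plus), in this order. The single match of CA9 starts at position -18 from the start site. DDIT4 has 4 matches, all on the strand of the gene, and BNIP3 has 6, of which 5 are on the opposite strand.
CA9: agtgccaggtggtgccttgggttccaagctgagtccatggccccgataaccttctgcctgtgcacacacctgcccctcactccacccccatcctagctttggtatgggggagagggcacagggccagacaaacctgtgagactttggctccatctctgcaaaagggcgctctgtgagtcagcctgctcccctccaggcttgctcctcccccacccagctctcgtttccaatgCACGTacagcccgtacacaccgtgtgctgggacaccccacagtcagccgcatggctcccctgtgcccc
PFKFB4: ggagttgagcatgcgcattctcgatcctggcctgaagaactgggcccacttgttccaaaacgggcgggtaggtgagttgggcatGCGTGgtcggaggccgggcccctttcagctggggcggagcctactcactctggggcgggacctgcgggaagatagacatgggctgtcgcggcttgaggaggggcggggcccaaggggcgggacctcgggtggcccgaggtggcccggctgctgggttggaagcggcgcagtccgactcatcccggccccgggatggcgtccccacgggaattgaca
DDIT4: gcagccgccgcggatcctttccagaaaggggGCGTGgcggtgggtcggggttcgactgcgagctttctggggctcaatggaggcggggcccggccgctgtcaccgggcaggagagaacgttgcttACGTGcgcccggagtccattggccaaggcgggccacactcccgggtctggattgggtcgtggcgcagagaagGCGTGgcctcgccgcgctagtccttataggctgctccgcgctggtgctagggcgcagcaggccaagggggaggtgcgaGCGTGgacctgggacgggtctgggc
BNIP3: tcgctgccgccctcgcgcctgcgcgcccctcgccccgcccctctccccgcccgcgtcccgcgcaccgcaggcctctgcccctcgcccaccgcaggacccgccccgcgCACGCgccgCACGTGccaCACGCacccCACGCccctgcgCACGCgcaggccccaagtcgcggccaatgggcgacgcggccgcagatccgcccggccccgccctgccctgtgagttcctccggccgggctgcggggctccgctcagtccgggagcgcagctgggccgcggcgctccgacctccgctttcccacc
ANKRD37: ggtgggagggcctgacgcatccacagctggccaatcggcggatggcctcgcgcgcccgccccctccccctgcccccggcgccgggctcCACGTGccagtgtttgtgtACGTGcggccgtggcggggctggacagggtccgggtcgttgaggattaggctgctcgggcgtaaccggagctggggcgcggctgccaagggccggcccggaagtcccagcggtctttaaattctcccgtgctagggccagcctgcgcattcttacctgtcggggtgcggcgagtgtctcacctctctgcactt
PLOD1: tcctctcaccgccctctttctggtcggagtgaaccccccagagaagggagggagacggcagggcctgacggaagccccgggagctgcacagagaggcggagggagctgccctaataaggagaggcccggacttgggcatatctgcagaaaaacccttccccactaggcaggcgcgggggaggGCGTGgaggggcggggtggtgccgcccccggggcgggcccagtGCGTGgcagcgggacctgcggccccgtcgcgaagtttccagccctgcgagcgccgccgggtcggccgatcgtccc

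In Q63E, 14 HIF pathway genes rose and 5 fell of the 33 that could be tested. EPAS1 rose while HIF1A fell, CA9, PFKFB4, MXI1, DDIT4 and BNIP3 led the risen targets, and STC1 had the largest fall. HIF3A had a mean below the minimum value of 1 and was not tested. Among all 13346 genes tested, 11.3% rose and 14.0% fell (25.3% called in either direction at an adjusted p below 0.05 in limma), against 42.4% and 15.2% of the tested members. The median log2 fold change of the members was 0.20, and that of all tested genes -0.0023. The values of the 2 groups did not overlap for 26 of the 33 members (78.8%), against 43.9% of all genes. The members were proposed with earlier results of these data known, so these shares describe the list and are no test of it. Every fold change is the Q63E minus VEC difference of log2(value + 1), which understates the change of low genes.

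**Figure D1:**
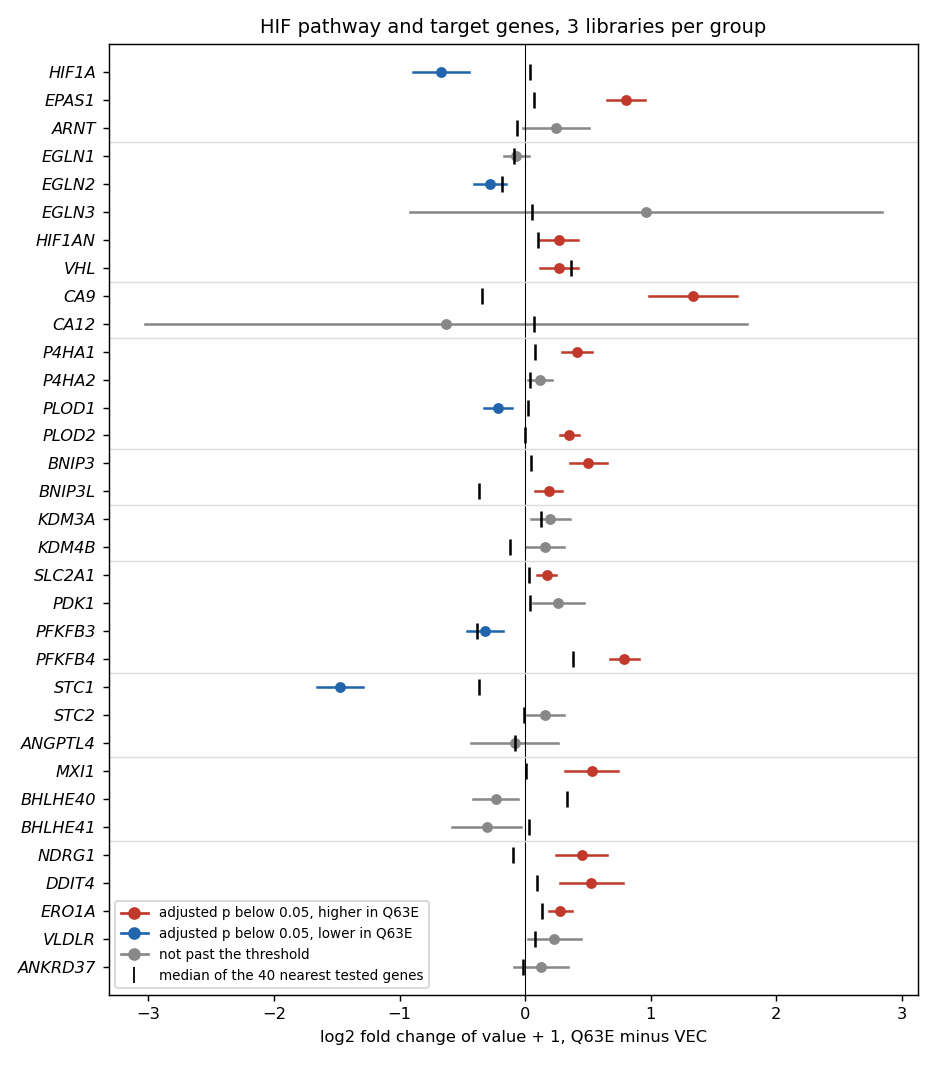
Log2 fold change of value + 1 (Q63E minus VEC, x axis) with its 95% confidence interval for the 33 tested members, grouped by role from top to bottom. Red and blue mark genes higher and lower in Q63E at an adjusted p below 0.05, grey marks the others, and the black tick is the median of the 40 nearest tested genes on the chromosome. HIF1A (-0.67) and EPAS1 (0.80) lie on opposite sides of 0, CA9 (1.34) is farthest right among the red genes, and STC1 (-1.47) is farthest left.

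The alpha subunit genes moved in opposite directions. HIF1A (chromosome 14, positions 61695513 to 61748259 on the plus strand of GRCh38), which encodes the alpha subunit of HIF-1, had values of 60.0, 67.0 and 57.7 in VEC and 38.9, 34.1 and 42.4 in Q63E. EPAS1 on chromosome 2, which encodes the alpha subunit of HIF-2, had 32.0, 32.7 and 34.4 in VEC and 58.4, 62.9 and 54.2 in Q63E. Each VEC library held more HIF1A than EPAS1, and each Q63E library held more EPAS1 than HIF1A. HIF1A fell by 0.67 on the log2 scale (SE 0.092, adjusted p = 0.00347) and EPAS1 had a log2 fold change of 0.80 (SE 0.064, adjusted p = 0.000464). The calls of both held in each of the 13 alternative settings. Per library, the ratio of EPAS1 to HIF1A had a mean of 0.539 ± 0.0541 in the VEC group against 1.54 ± 0.287 among Q63E libraries (SD, n = 3 each). An exact two-sided permutation test of this ratio gave p = 0.1, the smallest that 3 against 3 libraries allow. The adjusted value was 0.1 over the 3 ratios of related genes that were formed after their values had been seen. The sum of the pair was nearly level, at 94.6 ± 4.44 for VEC against 97.0 ± 0.341 for Q63E (SD, n = 3 each).

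The other subunits were low or did not pass. ARNT, the shared beta subunit, had values of 10.1, 11.5 and 10.6 in VEC and 11.2, 15.0 and 12.9 in Q63E. These groups overlapped, and the log2 fold change of 0.25 (95% interval -0.01 to 0.51) had an adjusted p of 0.148. HIF3A, which encodes an alpha subunit with isoforms that inhibit the others, had 0.37, 0.36 and 0.21 in VEC and 0.03, 0 and 0.11 in Q63E. Such values are too close to 0 to give a fold, although the groups did not overlap. With no filter on low values 6 members were called lower instead of 5, the addition being HIF3A. In that setting 1557 of all genes were called lower.

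A row antisense to HIF1A moved the other way from HIF1A itself. HIF1A-AS3 (ENSG00000258667, named HIF1A-AS2 in GENCODE 29) lies on the minus strand of chromosome 14 from position 61715558 to 61751097 and so covers much of the HIF1A gene. It had values of 14.4, 15.0 and 15.8 in VEC and 35.2, 37.5 and 39.2 in Q63E, which is 2.48-fold higher with no overlap. Its log2 fold change was 1.25 (SE 0.061, adjusted p = 8.27e-05), and it ran from 1.22 to 1.29 when 1 library was left out. HIF1A-AS3 is no member and was looked at after its values were seen. The sources used here do not state a strand for the counting, so reads of the overlapping stretches of HIF1A and HIF1A-AS3 cannot be told apart. The part of shared reads in the opposite changes was not tested.

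**Figure D2:**
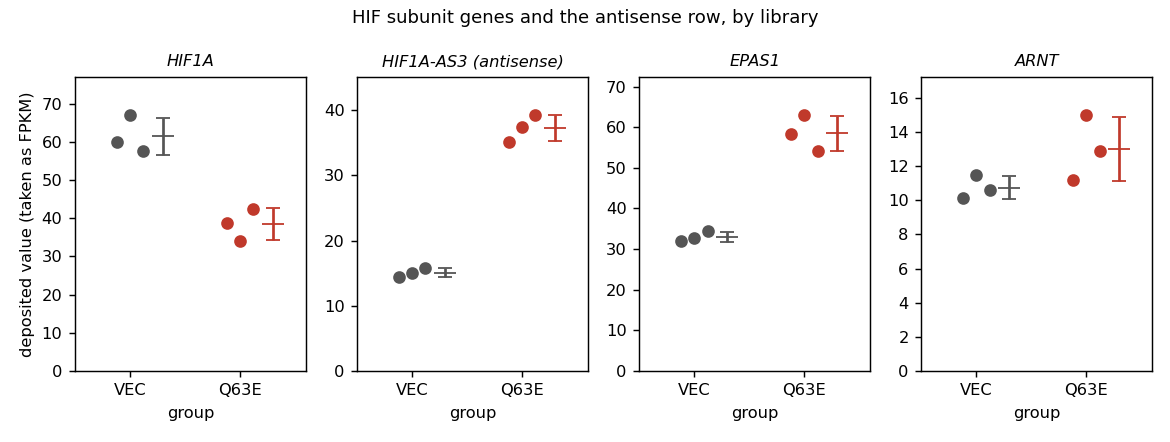
Deposited value per library (y axis, starting at 0) of HIF1A, its antisense row HIF1A-AS3, EPAS1 and ARNT in VEC and Q63E. Points are the 3 libraries of a group, the horizontal mark is their mean and the bar is 1 SD. HIF1A is lower in each Q63E library than in each VEC library, HIF1A-AS3 and EPAS1 are higher in each, and the ARNT points overlap.

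Of the 5 oxygen sensor genes 2 rose, 1 fell and 2 did not pass. EGLN1, the main prolyl hydroxylase that marks HIF for degradation, had 77.5, 78.3 and 81.5 in VEC and 72.6, 76.7 and 76.8 in Q63E. The groups lay close without overlapping, and it did not pass (log2 fold change -0.07, 95% interval -0.17 to 0.03, adjusted p = 0.265). EGLN2, a second prolyl hydroxylase, had 38.2, 37.6 and 39.5 in VEC and fell to 32.0, 29.6 and 32.9 in Q63E (log2 fold change -0.28, adjusted p = 0.0113). In each library EGLN1 had a higher value than EGLN2, and EGLN2 a higher value than EGLN3. EGLN3 is a prolyl hydroxylase whose gene is itself a HIF target. It stood apart in Q63E replicate 2, with 1.82, 0.44 and 0.55 in VEC and 0.22, 10.6 and 2.31 in Q63E. Its groups overlapped and its log2 fold change of 0.96 had an interval of -0.91 to 2.84 (adjusted p = 0.412). SPTSSA, which overlaps EGLN3 on the same strand, had 16.7 ± 0.655 for VEC against 16.7 ± 0.954 for Q63E (SD, n = 3 each). The part of shared reads in the EGLN3 values was not tested.

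HIF1AN and VHL both act to restrain HIF, and both had slightly higher values in Q63E. HIF1AN, the asparagine hydroxylase, rose from 18.0, 16.4 and 17.2 to 22.3, 20.7 and 20.1 (log2 fold change 0.27, adjusted p = 0.0223). VHL, the substrate-binding subunit of the ubiquitin ligase, rose from 17.0, 18.7 and 17.3 to 20.2, 22.5 and 21.9 (log2 fold change 0.27, adjusted p = 0.0246). Neither call was firm. That of HIF1AN was lost without VEC replicate 2 or 3 or Q63E replicate 1 or 2, with adjusted p-values of up to 0.0700 over the alternatives. That of VHL was lost without VEC replicate 1 or 3 or Q63E replicate 2 or 3. VHL lies on chromosome 3 among genes that were also higher. Of its 40 nearest tested genes (20 on each side) 37 were higher, with a median of 0.37, and with this median subtracted in each library VHL had -0.10 (adjusted p = 0.388). The same subtraction took EGLN2 to -0.13 (adjusted p = 0.168) and HIF1AN to 0.20 (adjusted p = 0.0592). NDUFB8, an abundant gene that overlaps HIF1AN on the other strand, had 437 ± 30.2 for VEC against 490 ± 12.3 for Q63E (SD, n = 3 each) and did not pass (log2 fold change 0.17, adjusted p = 0.0655). The part of its reads in the value of HIF1AN was not tested.

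CA9, a membrane carbonic anhydrase that helps cells export acid and is among the most used HIF-1 markers, had the largest rise of the members that passed. It had values of 3.45, 2.89 and 2.29 in VEC and 8.0, 10.1 and 8.15 in Q63E, which is 3.05-fold higher (log2 fold change 1.34, SE 0.147, adjusted p = 0.00146). The groups stood well apart although the level was low next to other members. Of its 40 nearest genes on chromosome 9, 36 were lower in Q63E (median -0.34), so that CA9 rose in a stretch that was shifted down. ARHGEF39, which overlaps CA9 on the other strand, had 9.35 in VEC and 7.71 in Q63E and did not pass (adjusted p = 0.251). CA12, a second membrane carbonic anhydrase, gave no usable comparison. It had 0.52, 0.67 and 20.9 in VEC and 1.89, 1.06 and 1.54 in Q63E. The value of VEC replicate 3 alone set the sign of its change, which was -0.63 with that library and 0.63 without it (adjusted p = 0.687 and 0.110).

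Of the 4 collagen-modifying hydroxylases 2 rose, 1 fell and 1 did not pass. P4HA1, the catalytic subunit of collagen prolyl 4-hydroxylase, rose from 69.8, 63.8 and 65.9 to 91.0, 90.8 and 84.8 (log2 fold change 0.41, adjusted p = 0.00203). PLOD2, a lysyl hydroxylase of collagen telopeptides, rose from 153, 154 and 157 to 199, 201 and 193 (log2 fold change 0.35, adjusted p = 0.000702). PLOD1, the lysyl hydroxylase of the collagen helix, went the other way, from 97.6, 92.3 and 88.8 to 80.2, 81.5 and 77.9 (log2 fold change -0.22, adjusted p = 0.0166). Its call was lost without Q63E replicate 1 or 3 (adjusted p of up to 0.0567). The groups did not overlap for any of these 3 genes. The ratio of PLOD2 to PLOD1 per library was 1.67 ± 0.0980 for VEC against 2.48 ± 0.00636 for Q63E (SD, n = 3 each). The exact two-sided permutation p was 0.1 (0.1 adjusted over the 3 ratios), the smallest possible, for a pair chosen after its values were seen. P4HA2, the alternative catalytic subunit, had 38.3 ± 0.765 and 41.6 ± 0.712 (SD, n = 3 each) with no overlap, and did not pass (log2 fold change 0.12, adjusted p = 0.0738). PDLIM4, which overlaps P4HA2 on the other strand, fell from 44.5 ± 3.59 in VEC to 23.8 ± 3.38 in Q63E (SD, n = 3 each, log2 fold change -0.88, adjusted p = 0.00234), and the part of shared reads was not tested.

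Both mitophagy receptor genes rose, by unequal amounts. BNIP3, which marks mitochondria for removal in hypoxic cells, rose from 170, 160 and 166 to 215, 249 and 241 (log2 fold change 0.50, SE 0.061, adjusted p = 0.00206). BNIP3L, its relative also known as NIX, rose from 96.3, 90.4 and 97.7 to 105, 111 and 108 (log2 fold change 0.19, adjusted p = 0.0231). The smaller rise did not pass without VEC replicate 2 or Q63E replicate 2 or 3. It was seen on chromosome 8 among genes that were lower. Of its 40 nearest genes 35 were lower, with a median of -0.37. With that median subtracted its log2 fold change was 0.56 (adjusted p = 0.00117).

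The histone demethylase genes KDM3A and KDM4B, which are themselves HIF targets, did not pass. KDM3A had 36.9 ± 2.96 in VEC and 42.4 ± 1.07 in Q63E, and KDM4B had 12.2 ± 0.623 and 13.8 ± 0.376 (SD, n = 3 each). On the log2 scale KDM3A differed by 0.20 (adjusted p = 0.0655) and KDM4B by 0.16 (adjusted p = 0.115). The groups did not overlap for either gene.

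Of the metabolic switch genes, PFKFB4 rose most. The products of PFKFB3 and PFKFB4 set the level of fructose 2,6-bisphosphate, which drives phosphofructokinase. PFKFB4 had 40.9, 38.3 and 37.8 in VEC and 67.5, 70.7 and 66.0 in Q63E (log2 fold change 0.79, SE 0.048, adjusted p = 0.000201). PFKFB3 had 167, 178 and 178 in VEC and 135, 151 and 132 in Q63E (log2 fold change -0.32, adjusted p = 0.0105). PFKFB3 remained the more abundant of the pair in each library. The ratio of PFKFB4 to PFKFB3 was 0.224 ± 0.0181 for VEC against 0.489 ± 0.0188 for Q63E (SD, n = 3 each). This pair was also chosen after its values were seen, and its exact two-sided permutation p of 0.1 (0.1 adjusted over the 3 ratios) is the smallest possible. Both genes lie among neighbours shifted the same way. The median was 0.38 around PFKFB4 on chromosome 3, with 36 of 40 genes higher, and -0.39 around PFKFB3 on chromosome 10, with 35 of 40 lower. With these subtracted PFKFB4 had 0.42 (adjusted p = 0.00457) and PFKFB3 had 0.05 (adjusted p = 0.654). UCN2, which overlaps PFKFB4 on the same strand, was also higher (5.02 ± 0.196 and 7.73 ± 0.436, SD, n = 3 each, adjusted p = 0.00464), and the part of shared reads was not tested.

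SLC2A1, the glucose transporter GLUT1, had a small and even rise. It had 297, 287 and 304 in VEC and 333, 332 and 335 in Q63E (1.13-fold, log2 fold change 0.17, adjusted p = 0.0109). After subtraction of its neighbours' median it had 0.14 (adjusted p = 0.0659). PDK1, the kinase that turns off pyruvate dehydrogenase, had 25.7 ± 2.85 and 30.9 ± 1.07 (SD, n = 3 each), with no overlap, and did not pass (log2 fold change 0.27, adjusted p = 0.0649).

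Of the 3 secreted targets STC1 fell and the others did not pass. STC1, a glycoprotein hormone, had 13.2, 12.8 and 12.5 in VEC and fell to 3.70, 4.16 and 4.09, which left 0.310 of the VEC mean (log2 fold change -1.47, SE 0.075, adjusted p = 9.77e-05). The groups lay far apart, and the fall was larger than that of its neighbours on chromosome 8, whose median was -0.37 with 36 of 40 lower. With it subtracted STC1 had -1.11 (adjusted p = 0.000464). Its relative STC2 had a VEC mean 31.03 times that of STC1 and no fall, with 398 ± 12.1 for VEC against 447 ± 35.3 for Q63E (SD, n = 3 each). Its groups overlapped and it did not pass (log2 fold change 0.16, adjusted p = 0.10). ANGPTL4, an inhibitor of lipoprotein lipase, had 26.7 ± 2.20 and 25.4 ± 5.26 (SD, n = 3 each) with overlapping groups (log2 fold change -0.08, 95% interval -0.43 to 0.26, adjusted p = 0.714).

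Of the 3 transcriptional repressor genes, MXI1 rose. MXI1, an antagonist of MYC, had 9.65, 11.3 and 10.9 in VEC and 16.5, 16.6 and 14.3 in Q63E (log2 fold change 0.53, SE 0.088, adjusted p = 0.00681), and this call held in each of the 13 alternatives. BHLHE40 and BHLHE41, which repress clock and metabolic genes, had lower values in Q63E without passing. BHLHE40 had 97.1, 92.3 and 97.4 in VEC and 83.9, 88.0 and 72.5 in Q63E (log2 fold change -0.23, adjusted p = 0.0636). BHLHE41 had 4.91 ± 0.556 and 3.77 ± 0.360 (SD, n = 3 each, log2 fold change -0.31, adjusted p = 0.10). The groups did not overlap for either. BHLHE40 lies on chromosome 3 among genes that were higher (35 of 40, median 0.34), and with that median subtracted it had -0.54 (adjusted p = 0.00433).

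The remaining targets included some of the most abundant members. NDRG1, a stress-responsive gene often used as a hypoxia marker, rose from 409, 399 and 430 to 546, 642 and 510 (log2 fold change 0.45, adjusted p = 0.0111). DDIT4, also known as REDD1, which restrains mTORC1, rose from 649, 528 and 576 to 853, 937 and 742 (log2 fold change 0.53, adjusted p = 0.0137). ERO1A, the oxidase that forms disulphide bonds in the endoplasmic reticulum, rose from 64.8, 63.3 and 60.7 to 76.2, 77.3 and 76.5 (log2 fold change 0.28, adjusted p = 0.00330). In each of these genes all Q63E libraries lay above all VEC libraries. The spread between Q63E libraries was wide for NDRG1 and DDIT4 and narrow for ERO1A. With the neighbours' median of 0.09 subtracted, DDIT4 had 0.41 (adjusted p = 0.0522). VLDLR, a lipoprotein receptor, had 10.8, 10.3 and 11.9 in VEC and 13.9, 13.8 and 11.8 in Q63E. ANKRD37, an ankyrin repeat gene, had 16.6, 14.5 and 17.4 in VEC and 17.1, 19.4 and 16.6 in Q63E. The groups of both overlapped, and neither passed (adjusted p = 0.103 and 0.360). UFSP2, which overlaps ANKRD37 on the other strand, rose from 8.72 ± 1.06 to 11.5 ± 0.911 (SD, n = 3 each, log2 fold change 0.37, adjusted p = 0.0470), and the part of shared reads was not tested.

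**Figure D3:**
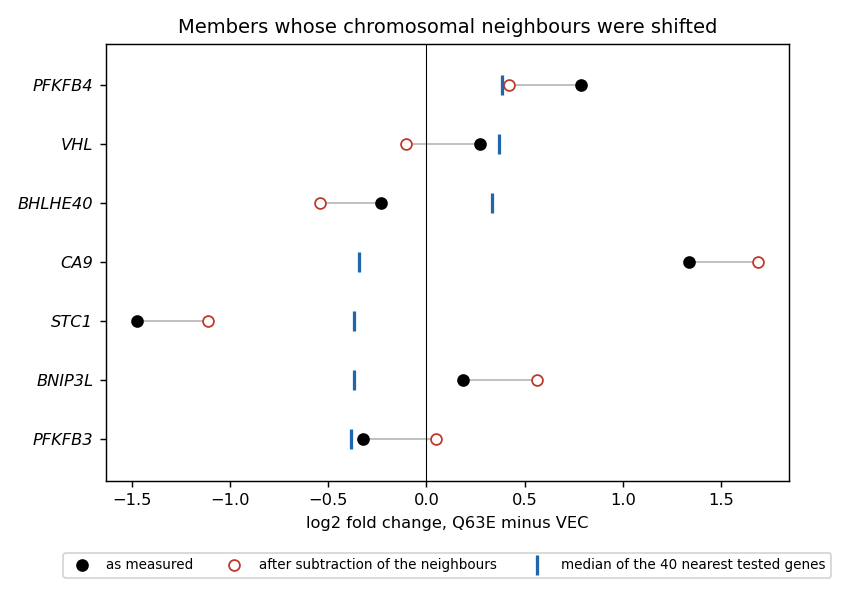
The 7 members whose 40 nearest tested genes had a median log2 fold change of at least 0.3 in size. The x axis is the log2 fold change, Q63E minus VEC, black points are the values as measured, open red points those after subtraction of the neighbours' median in each library, and blue ticks the neighbours' median. PFKFB3 and VHL cross 0, while CA9, STC1, PFKFB4, BNIP3L and BHLHE40 keep their side.

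Neighbours shifted by at least 0.3 in size were found for 7 of the 33 tested members, 3 with a raised and 4 with a lowered neighbourhood. Over all tested genes the share was 8.65%, with genes that had no neighbour median counted as not shifted. These 7 members are not 7 separate regions. BNIP3L and STC1, both on chromosome 8, had the same neighbour median (-0.37). VHL and BHLHE40 start at positions 10141008 and 4979116 of chromosome 3. With the neighbours subtracted for every gene, 11 members rose and 4 fell, against 1108 and 1195 of all 13282 genes with neighbours. EGLN2, HIF1AN, VHL, SLC2A1, PFKFB3 and DDIT4 lost their call in this setting, and KDM4B and BHLHE40 gained one. The cause of the regional shifts was not tested, and a change of a gene and of its region cannot be told apart from these values.

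Within the Q63E group, replicate 2 was the highest library for 23 of the 33 tested members, against 35.4% of all genes. It held the highest EPAS1, ARNT, EGLN3, CA9, NDRG1, BNIP3, STC2, DDIT4 and ANGPTL4 of the 3 libraries, and the lowest HIF1A. The median deviation of the members from their VEC mean was 0.16 in Q63E replicate 1, 0.25 in replicate 2 and 0.18 in replicate 3, so that each library was shifted. Without Q63E replicate 2, 11 members rose and 6 fell, and the fall of BHLHE40 then passed (adjusted p = 0.0447). Over all genes, 1027 then rose and 1463 fell, against 1510 and 1873 with all libraries. EGLN3 was 10.6 in Q63E replicate 2, 4.57 times the next Q63E value.

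**Figure D4:**
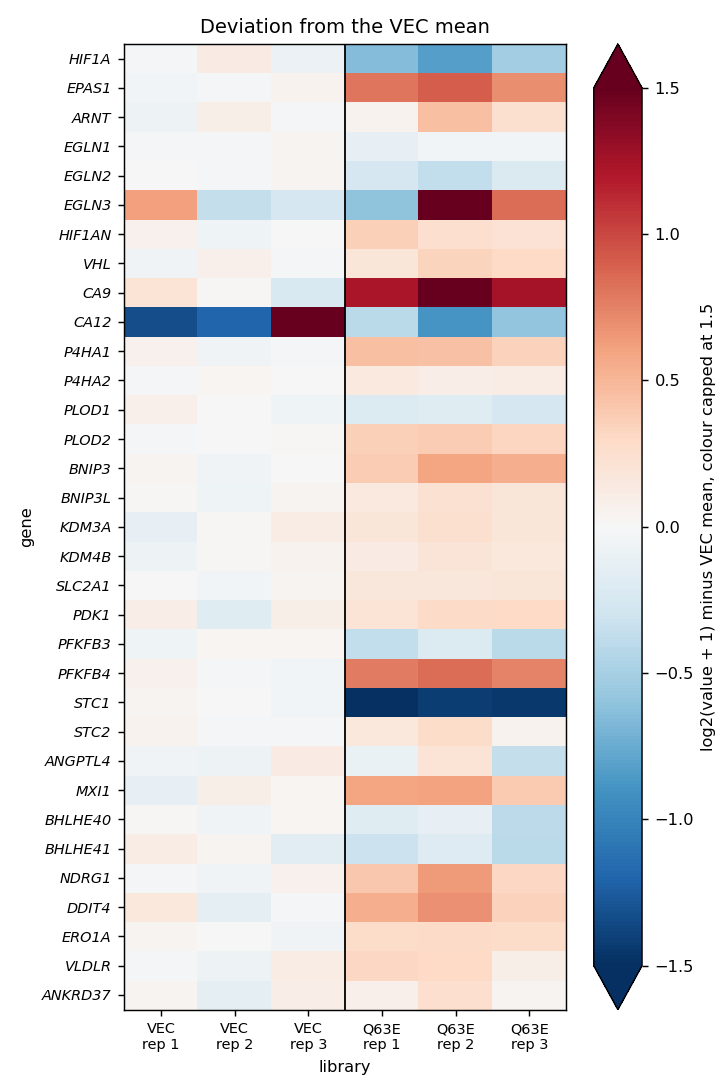
Deviation of log2(value + 1) from the VEC mean for the 33 tested members (rows) in the 6 libraries (columns), red above and blue below the mean, with colours capped at 1.5. The 3 Q63E columns share most signs. CA9 and STC1 are dark in all 3 of them, the CA12 row is set by VEC replicate 3 and the EGLN3 row by Q63E replicate 2, and the median deviations of the Q63E columns are 0.16, 0.25 and 0.18.

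Other genes of the pathway came from 3 lists outside the members. Like the members, these lists were chosen with earlier results of these data known, so their shares are no test of them. Among 20 genes of the HIF ubiquitin ligase, partners and coactivators, 3 rose and 3 fell, which is close to the 25.3% called over all genes. Their median log2 fold change was 0.04. Within the VHL ligase, the scaffold CUL2 fell from 22.4 ± 1.95 to 14.5 ± 0.734 (adjusted p = 0.00277, log2 fold change -0.59). The adaptor ELOC went down from 115 ± 6.19 to 80.4 ± 2.24 (adjusted p = 0.000936, log2 fold change -0.51). ELOB and RBX1, of the same ligase, did not pass (log2 fold change 0.09 and -0.22, adjusted p = 0.261 and 0.111). With the neighbours subtracted RBX1 had 0.27 (adjusted p = 0.0691). CITED2, which competes with HIF for its coactivators and is itself hypoxia-induced, rose from 22.2 ± 0.830 to 32.0 ± 2.22 (log2 fold change 0.51, adjusted p = 0.00236). EP300, a coactivator, fell, from 26.3 ± 0.525 in VEC to 18.5 ± 1.64 (SD, n = 3 each, log2 fold change -0.48, adjusted p = 0.00420). Its 40 neighbours had a median of -0.49, and with it subtracted EP300 had 0.0027 (adjusted p = 0.984). CREBBP, also a coactivator, did not pass (log2 fold change 0.02, adjusted p = 0.880).

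Of 20 glycolytic target genes 9 rose and 1 fell (45% and 5%, against 11.3% and 14.0% of all tested genes), with a median log2 fold change of 0.14. As for the members, such shares describe the list and do not test it. ENO2 (117, 111 and 119 in VEC, 186, 188 and 172 in Q63E) and AK4 (48.1 ± 2.18 and 66.0 ± 3.43, SD, n = 3 each) rose most, by log2 fold changes of 0.65 and 0.45 (adjusted p = 0.000399 and 0.00232). The rise of PGK1 (log2 fold change 0.32, adjusted p = 0.0158) was lost without VEC replicate 3 (adjusted p = 0.0523) and with the neighbours subtracted (adjusted p = 0.0933). The fall of PFKL (log2 fold change -0.38, adjusted p = 0.00132) was lost with them subtracted (-0.06, adjusted p = 0.428). Without VEC replicate 3, 4 genes of this list rose, and with no filter on low values 5 rose. Over all genes 1033 and 1152 rose in these settings, against 1510.

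Of 28 tested genes among other known targets, 14 rose and 4 fell (50% and 14.3%, against 11.3% and 14.0% of all tested genes), with a median of 0.30. Here too the shares describe the list and are no test of it. EDN1, the precursor of the vasoconstrictor endothelin 1, had 2.92, 2.59 and 2.20 in VEC and 10.2, 9.67 and 11.7 in Q63E (log2 fold change 1.69, adjusted p = 0.000294). LOX, which cross-links collagen, and ADM, a vasodilator peptide, had log2 fold changes of 1.04 and 0.96 (adjusted p = 0.000432 and 0.000758). PPFIA4, a liprin often found among hypoxia-induced genes, had 4.78, 7.11 and 7.93 in VEC and 10.9, 12.5 and 11.1 in Q63E (log2 fold change 0.74, adjusted p = 0.0209). That call was lost without Q63E replicate 1, 2 or 3 and with no filter on low values (adjusted p of up to 0.0674). The 4 that fell were TFRC, LOXL2, ZNF395 and PLAUR, with log2 fold changes of -0.74, -0.45, -0.26 and -0.15 (adjusted p = 0.00229, 0.00145, 0.0327 and 0.0440). With the neighbours subtracted they had -0.53, -0.04, 0.10 and -0.17 (adjusted p = 0.0119, 0.577, 0.429 and 0.0383). Without Q63E replicate 2, or with no filter, 9 genes of this list rose, while 1027 and 1152 of all genes rose, against 1510. The 4 that fell became 2 without VEC replicate 2 or 3 or Q63E replicate 1 or 3. They also became 2 with no filter or with equal sums per library.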

How the data were processed

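RNA sequencing values of 6 T24 libraries (3 VEC, 3 Q63E) were used. For each library the authors deposited a table of 58882 rows, each with a single value. No unit is named in the file headers. The deposited values are taken as FPKM because short genes rank highest and totals differ between libraries. HISAT2 2.1.0, Bowtie2 and GRCh38.p10 are named in the submitters' processing notes, without roles. The sources used here name no counting tool, strand or filter. Assembled loci without a gene name (649 rows, 0.274% to 0.511% of a library's total) were left out.

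Whole-read steps were looked for among genes of 200 to 600 bases. Over many trial depths, at best 31.3% to 35.1% of low values fell within 0.1 of a whole number, against 20% at a single depth without steps. The best of many depths can pass 20% without steps, so steps are neither shown nor excluded. Depth is thus unknown and no counting interval is given.

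Symbols came from a gene table, positions from GENCODE 29 (GRCh38) and promoters from RefSeq. Genes with a mean of at least 1 were tested as log2(value + 1) on group alone with limma 3.58.1 in R 4.3.3 (eBayes with trend, two-sided, Benjamini-Hochberg over 13346 genes, threshold 0.05). The steps were tested on simulated data. Ratios were compared with scipy 1.17.1. The members and lists were chosen with earlier results of these data known. Per-library values are given for members past the threshold and for HIF1A, EPAS1, ARNT, VHL and EGLN1 to EGLN3. From each further list the up to 4 called genes with the largest change are named. ELOB, RBX1, CREBBP and the called genes that fell among the other targets were added after their values were seen. Of those lists 1 symbol, HIF1A-AS2, was not matched by symbol. Alternatives were another pseudocount, 2 filters, 2 scalings, a replicate block, subtraction of the 40 nearest genes' median and leaving out each library.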

Additional observations from a re-analysis of the deposited data

How the results depend on the processing

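Of the 19 members called, 11 kept their direction and call in each of the 13 alternatives (EPAS1, HIF1A, CA9, STC1, PFKFB4, PLOD2, P4HA1, BNIP3, ERO1A, MXI1 and NDRG1), and 8 lost it in at least 1. Leaving out 1 library gave 994 (without Q63E replicate 3) to 1153 genes higher against 1510 with all libraries, 4 to 9 glycolytic targets higher, 9 to 12 other targets higher and 2 to 3 lower, and a median of the members of 0.17 to 0.25. It gave log2 fold changes of -1.29 to 0.63 for CA12 and -0.23 to 0.057 for ANGPTL4. With no filter on low values 5 glycolytic and 9 other targets were higher and 2 other targets lower, the number of genes tested being larger. With equal sums per library 2 other targets were lower. With the neighbours subtracted 1195 genes and 0 glycolytic targets were lower. Of the genes named, VHL (-0.10), PFKFB3 (0.051), ANGPTL4 (0.014), EP300 (0.0027), RBX1 (0.27) and ZNF395 (0.099) changed sign in this setting. The cause of these changes was not tested. Libraries of the same replicate number did not deviate together (r = -0.042, -0.0087 and -0.025), so the numbers do not pair them. With the replicate number as a block 942 genes, 3 glycolytic and 9 other targets were higher and 2 other targets lower, and BNIP3L (adjusted p = 0.0827), SLC2A1 (0.0559) and PGK1 (0.0659) lost their call. The block left 12 members higher and 5 lower, with 1266 of all genes lower. Depth is unknown, which limits the genes near a value of 1, such as EGLN3 and CA12.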
